A study of Homo sapiens with 12 samples.

Results

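The type I interferon-stimulated genes described here were 38 named genes, read by symbol from the gene tables of U87 and U118, a pair of established human glioblastoma lines. All 38 matched a single identifier, out of 58174 Ensembl identifiers in each table. The study compared sensitive cells, which it also calls control cells, with resistant cells, which it also calls aggregation cells. In both lines the cells were first sorted as CD133-CD15- cells and kept in DMEM/F12 medium with serum and BMP2. Resistant cells were the cell clusters that formed in cultures given weeks of continuous temozolomide (TMZ, an alkylating drug used against glioblastoma) at 50 μM. Sensitive cells received none. The paper's text has the clusters form in the weeks after treatment, and a figure legend has them form after weeks of treatment. The paper does not say whether the drug was present when RNA was taken. Each of the 4 groups (2 lines, 2 states) had 3 mRNA libraries. Nothing in the labels says that the 3 libraries of a group came from separate cultures, so the p-values below measure only the spread between these libraries. The question addressed was how the resistant cells of each line differ from the sensitive cells of that line, and whether the difference is alike in both lines.

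Type I interferons bind the receptor pair IFNAR1 and IFNAR2 and activate the kinases JAK1 and TYK2. These phosphorylate STAT2, which enters the ISGF3 complex with IRF9. ISGF3 binds the interferon-stimulated response element (ISRE) in the promoters of many antiviral genes. Many of these genes are also induced by damaged or misplaced nucleic acids through sensors such as IFIH1 and through IRF transcription factors, and in tumour cells a part of them is expressed without added interferon.

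The promoter sequences of the members were searched for the ISRE. The members were picked as interferon-stimulated genes, so a share above that of all genes goes with the choice and is not separate support. The RefSeq promoter table of build GRCh38.p14 gives windows from 250 bases before to 50 bases from the transcript start on, and held 40 windows for 30 of the 38 members. No window was used for TRIM22, USP18, IRF7, MX2, OAS2, IFIT2, OASL and IFITM2. The core of the ISRE was searched on both strands as GAAA, any 2 bases, and GAAA again, with overlapping matches counted. It was found for 22 of the 30 members (73.3%), against 3.57% of all 35116 windows in the table and 4.38% of all genes with a window. The gamma-activated site, a response element of interferon gamma signalling, was searched as TTCNNNGAA and was found for 8 of the 30 members (26.7%), against 7.66% of all windows and 9.38% of all genes with a window. A match is a description of the letters and not a measured binding site. The windows are printed for OAS3, the member called lower in both lines, HERC5, which was near 0 in U118 sensitive cells, and BST2, which was called lower in U118. They read 5′ to 3′ on the gene's strand, with the ISRE core in capitals.
OAS3, chr12:112938224-112938523, plus strand: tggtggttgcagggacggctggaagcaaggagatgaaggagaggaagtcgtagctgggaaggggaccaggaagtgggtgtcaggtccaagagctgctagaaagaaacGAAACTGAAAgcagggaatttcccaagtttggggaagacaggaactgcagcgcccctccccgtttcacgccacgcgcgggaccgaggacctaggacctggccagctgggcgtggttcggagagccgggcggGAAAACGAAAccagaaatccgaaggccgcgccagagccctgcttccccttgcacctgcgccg
HERC5, chr4:88456869-88457168, plus strand: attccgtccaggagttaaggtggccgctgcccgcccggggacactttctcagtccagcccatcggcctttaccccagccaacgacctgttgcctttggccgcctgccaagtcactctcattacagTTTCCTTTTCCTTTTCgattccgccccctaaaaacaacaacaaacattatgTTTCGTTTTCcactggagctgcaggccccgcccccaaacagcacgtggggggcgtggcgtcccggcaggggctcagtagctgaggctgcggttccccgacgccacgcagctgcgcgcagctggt
BST2, chr19:17405581-17405880, minus strand: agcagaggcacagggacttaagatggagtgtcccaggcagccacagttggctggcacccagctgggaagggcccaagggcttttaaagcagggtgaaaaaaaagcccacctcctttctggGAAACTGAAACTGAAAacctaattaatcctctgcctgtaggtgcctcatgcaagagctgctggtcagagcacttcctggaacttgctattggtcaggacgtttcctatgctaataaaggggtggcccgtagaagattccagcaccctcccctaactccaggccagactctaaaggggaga

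In the HERC5 window the core lies on the opposite strand and so reads TTTC, any 2 bases, and TTTC. The OAS3 window held 2 matches, HERC5 held 3 and BST2 held 2 overlapping ones. Shorter stretches, with 10 bases on either side of the matches, are printed for further members that are described below.
IFIT1, chr10:89392497-89392539, plus strand: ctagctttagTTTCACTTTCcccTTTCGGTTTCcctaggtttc
ISG15, chr1:1013374-1013409, plus strand: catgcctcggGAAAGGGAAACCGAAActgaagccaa
IFI44, chr1:78649761-78649790, plus strand: gcacactgagTTTCAGTTTCctttctctga
GBP1, chr1:89065316-89065345, minus strand: aacgaagtacTTTCAGTTTCatattactct
SAMD9, chr7:93118096-93118125, minus strand: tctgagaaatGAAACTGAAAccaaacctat
DTX3L, chr3:122564322-122564351, plus strand: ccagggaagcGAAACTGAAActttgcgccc

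The DTX3L stretch is shared. PARP9 starts next to DTX3L on the other strand, and the same match at chr3:122564332-122564341 lies in a promoter window of each gene. No match was in the windows of CMPK2, HERC6, IRF1, IRF9, OAS1, SAMD9L, STAT2 and XAF1, which says only that these letters are not in these windows. IRF1, IRF9 and OAS1 held the gamma-activated site.

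Before the results, the libraries themselves need a description. The files hold TPM, transcript abundances normalised to length and to a common library total, so read depth is unknown and no counting interval can be given. From 13270 to 15290 genes reached 1 TPM in a library. The share of TPM held by genes of the mitochondrial genome was 12.9% to 16.9% in U87 sensitive, 22.2% to 23.7% in U87 resistant, 7.42% to 19.7% in U118 sensitive and 13.2% to 29.9% in U118 resistant libraries, and a higher share lowers the TPM of all other genes. The U118 resistant libraries went against their label in their gene ranks. Over 16382 genes, Spearman's rho across genes was 0.808 to 0.839 with the U118 sensitive libraries and 0.907 to 0.913 with the U87 resistant ones. Of 86 genes with at least 10 TPM in every U87 sensitive library and under 0.5 TPM in every U118 sensitive library, 71 reached 1 TPM in all 3 U118 resistant libraries. Of 157 genes with the opposite pattern, 96 were under 0.5 TPM in all 3 of them, against 139 in U87 resistant libraries. The difference between U118 groups therefore cannot be told apart from a difference in the makeup of the cells, and U118 resistant levels of several members are set beside U87 levels after the results by role, while the heat map gives all of them. Replicate 1 of U118 resistant also stood apart from its 2 partners, with 15193 genes at 1 TPM against 13270 and 13545. That library was the highest of its group for 57.1% of the members tested in U118, against 74.8% of all genes tested. Replicate 3 of U118 sensitive had a mitochondrial share of 19.7%, against 7.42% and 8.55% in its partners. It was the highest of its group for 48.6% of these members, against 34% of all genes tested. Of the 6 glial markers, VIM was at 4425 TPM or more in every library, GFAP stayed under 0.7 TPM and S100B was near 0. CD44 was at 311 to 480 TPM in U87 and went from 730 to 868 TPM in U118 sensitive to 354 to 566 TPM in U118 resistant libraries. OLIG2 went from 0 to 0.0524 TPM in U118 sensitive to 0.570 to 1.05 TPM in U118 resistant libraries, beside 1.45 to 4.45 TPM in U87. NES went from 5.76 to 7.57 TPM to 10.4 to 24.1 TPM in U118 and from 7.30 to 8.34 TPM to 10.95 to 12.003 TPM in U87, and the part of these markers in the results was not tested. The leukocyte markers PTPRC and CD3E were at or near 0 in every library, and CSF1R and ITGAM are taken up with the results they moved with.

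The members covered a wide range of levels. IFITM3, a membrane protein that blocks virus entry, had the highest mean in each group, at 223 ± 14 TPM in U87 sensitive, 287 ± 79 in U87 resistant, 133 ± 21 in U118 sensitive and 195 ± 74 in U118 resistant cells (SD, n = 3). From 10 to 16 of the 38 members had a mean of at least 10 TPM in a group, and from 5 to 11 had a mean under 1 TPM. The median of the 38 group means was 5.28 TPM in U87 sensitive, 4.38 in U87 resistant, 7.78 in U118 sensitive and 6.08 in U118 resistant cells. In bulk libraries of this kind, fewer expressing cells and less RNA per cell cannot be told apart.

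**Figure D1:**
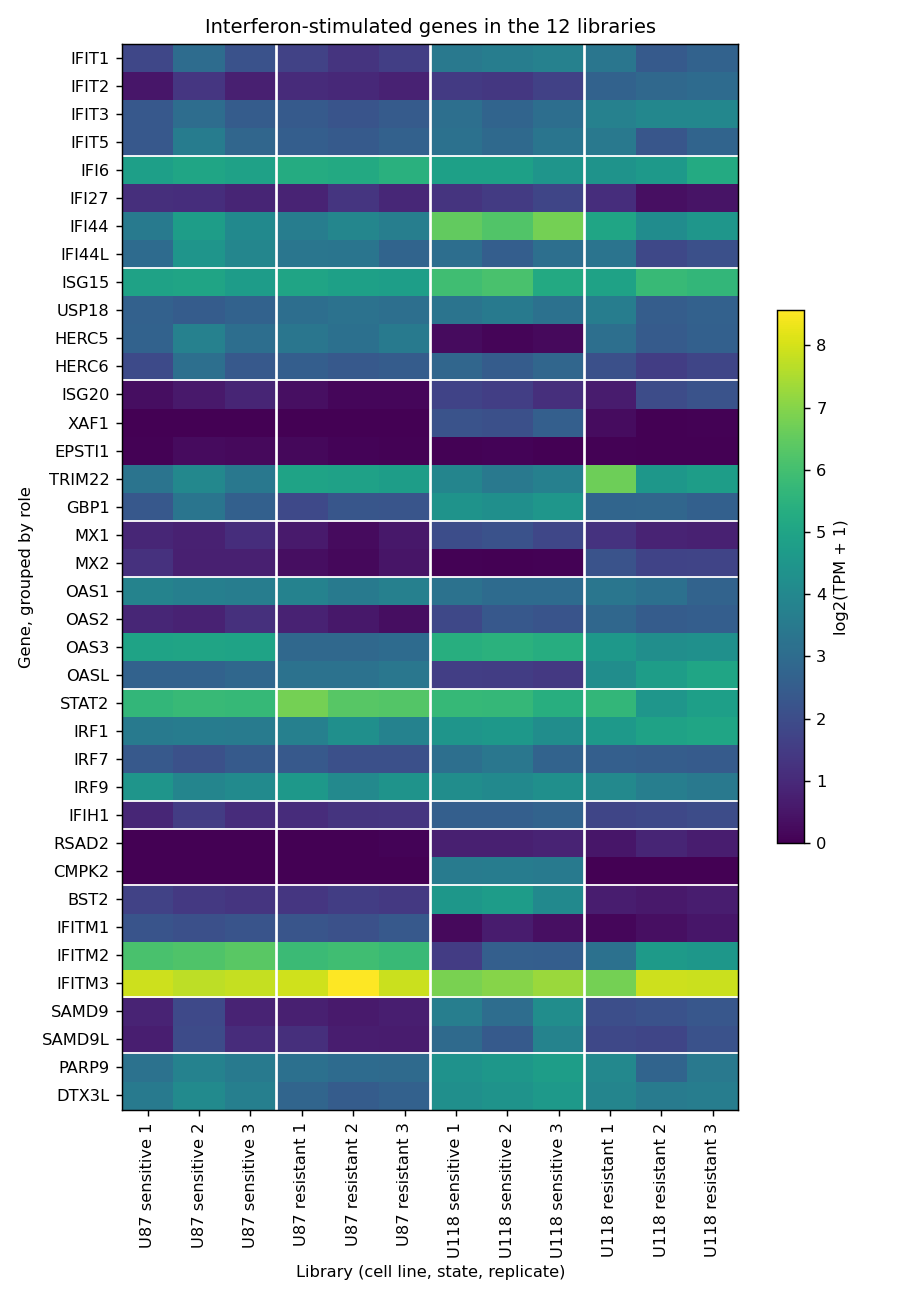
Level of the 38 members in the 12 libraries as log2(TPM + 1), with libraries in columns by group and genes in rows by role. CMPK2 and XAF1 are visible in U118 sensitive cells and HERC5 is near 0 only there.

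A gene counted as called where its limma adjusted p was below 0.05 and its groups differed by 1 or more on the log2(TPM + 1) scale. The adjustment ran over every gene that reached 1 TPM in 3 or more of a line's 6 libraries. All log2 differences below are resistant minus sensitive on this scale, which understates the change of low genes. In U87, 28 of the 38 members passed the filter on low values and 13845 genes were tested. 1 member was called higher (3.57%, against 3.03% of all genes tested) and 2 were called lower (7.14%, against 7.79% of all genes). In U118, 35 members passed the filter and 15527 genes were tested. 6 members were called higher (17.1%, against 8.64% of all genes) and 10 were called lower (28.6%, against 26.6% of all genes). The median difference was −0.03 over the 28 U87 members, against −0.24 over all genes, and −0.52 over the 35 U118 members, against −0.52 over all genes. The U87 shares and the lower share in U118 were near those of all genes. With median-ratio scaling of the libraries, which brought the median of all genes from −0.52 to −0.06 in U118, the U118 members split as 7 higher and 6 lower of 35 tested, against 14.7% and 13.8% of all genes. The U87 members then split as 2 higher, TRIM22 and STAT2, and 1 lower, OAS3, of 29 tested, against 4.97% and 3.81% of all genes, with the median of all U87 genes brought from −0.24 to 0.

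RSAD2 and EPSTI1 passed the filter in neither line. MX2 and HERC5 passed it in U118 through the resistant libraries alone, and BST2, CMPK2 and XAF1 through the sensitive libraries alone, so that a difference followed from the filter for these 5. Counted by libraries, the 3 resistant values lay above the 3 sensitive ones for 6 of 28 members in U87 (21.4%, against 13.6% of all genes) and below them for 6 (21.4%, against 39.8%). In U118 they lay above for 9 of 35 members (25.7%, against 15.7%) and below for 17 (48.6%, against 42.9%).

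**Figure D2:**
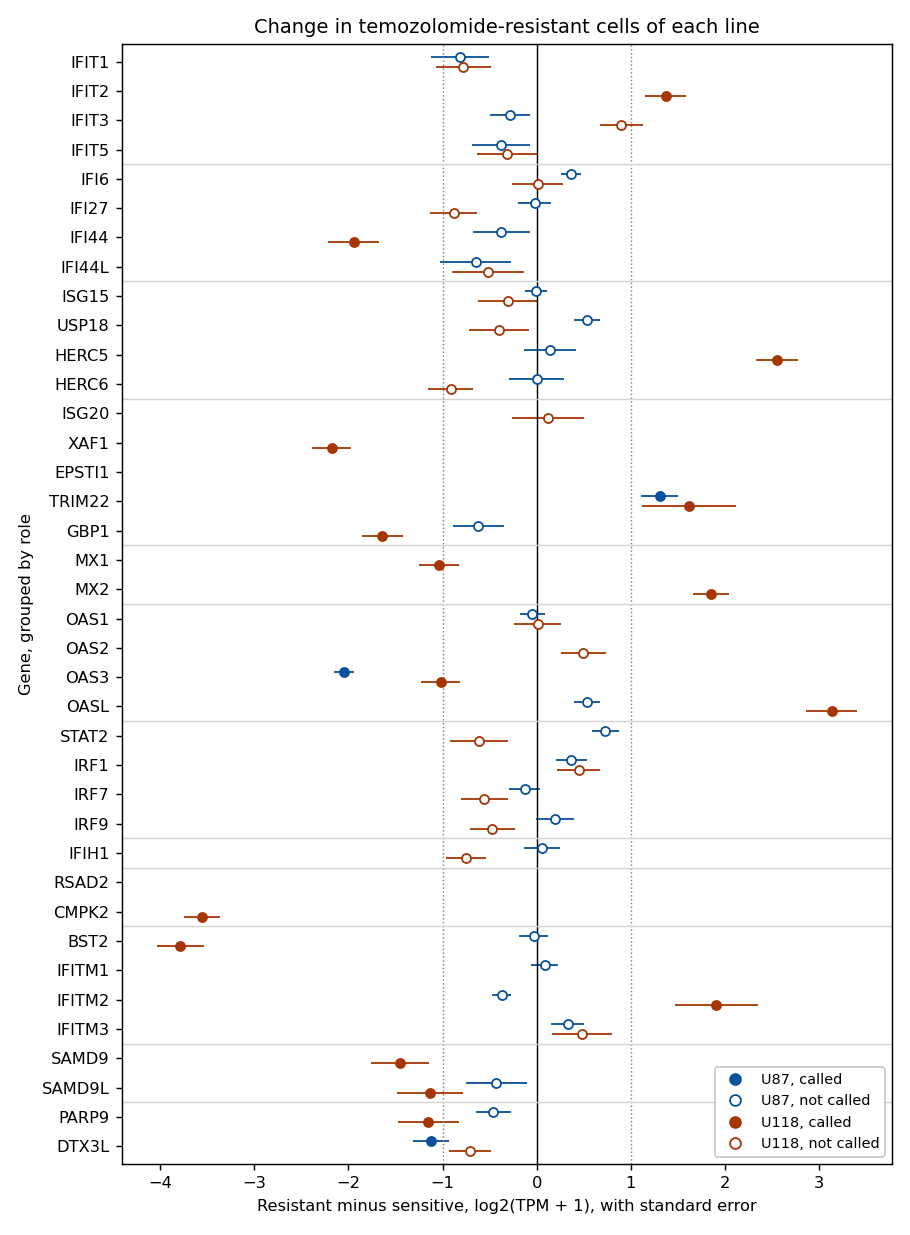
Difference between resistant and sensitive cells with its standard error for each member tested, on the log2(TPM + 1) scale, in U87 (blue) and U118 (red), with filled points for called members. In U87 the 3 called members are TRIM22, OAS3 and DTX3L. The U118 points spread from −3.79 (BST2) to 3.14 (OASL).

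In U87 the 3 called members were TRIM22, OAS3 and DTX3L. TRIM22, a tripartite-motif E3 ligase that restricts retroviruses, was at 8.82, 15.0 and 9.83 TPM in the sensitive and 30.4, 29.1 and 26.2 TPM in the resistant libraries. Every resistant library was above every sensitive one, with a difference of 1.31 ± 0.20 (SE) and an adjusted p of 0.00248 by limma. OAS3, which makes the 2′-5′ oligoadenylates that switch on RNase L, was at 30.3, 31.0 and 30.3 TPM in the sensitive and 6.36, 6.51 and 6.95 TPM in the resistant libraries. These are tight groups with a 4.62-fold lower mean, a log2 difference of −2.05 ± 0.11 (SE) and a limma adjusted p of 6.93e-05. DTX3L, an E3 ligase that acts with PARP9 in DNA damage signalling, was at 10.4, 16.2 and 12.02 TPM and then at 5.99, 4.59 and 5.36 TPM. It fell by 1.12 ± 0.19 (SE, limma adjusted p = 0.0043), and it was not past the size threshold when sensitive replicate 2 was left out (−0.95) or with median-ratio scaling (−0.87).

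A further 5 members passed the adjusted p in U87 and missed the size threshold. STAT2, the interferon-specific subunit of ISGF3, was at 50.0, 53.8 and 52.1 TPM in sensitive and 108, 79.5 and 75.7 TPM in resistant libraries, a difference of 0.73 ± 0.14 (SE, limma adjusted p = 0.007). OASL, an oligoadenylate synthetase-like protein without synthetase activity that enhances RIG-I signalling, differed by 0.54, USP18, the protease that removes ISG15 and damps the receptor, by 0.53, and IFI6, a mitochondrial and endoplasmic reticulum protein, by 0.36. IFITM2, a relative of IFITM3, differed by −0.37, and with median-ratio scaling by −0.10 with a limma adjusted p of 0.596. OASL, USP18, IFI6 and IFITM2 did not pass the adjusted p with the replicate block (0.0628, 0.0772, 0.0776 and 0.0516 by limma) or when some single libraries were left out, with limma adjusted p-values up to 0.0869, 0.079, 0.114 and 0.0776 in that order. For each of these 5 the resistant and sensitive libraries did not overlap.

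The other 20 U87 members that were tested did not pass the adjusted p. Among them was ISG15, the ubiquitin-like modifier, at 25.8 to 31.3 TPM in sensitive and 26.9 to 31.0 TPM in resistant libraries. OAS1 spanned 11.5 to 13.2 TPM and 10.4 to 12.8 TPM in the same order, so these 2 members overlapped closely. IFIT1, which binds viral RNA that lacks cap methylation, was at 2.56, 7.12 and 3.496 TPM in sensitive and 2.19, 1.46 and 2.04 TPM in resistant libraries. Its groups did not overlap, and sensitive replicate 2 was well above its 2 partners. That library was the highest of its group for 18 of the 28 members (64.3%), against 51.2% of all genes tested. IFIT5, IFI44, IFI44L, HERC5, HERC6, SAMD9L and GBP1 were each highest there too, and IFI44L, for example, stood at 6.91, 20.9 and 14.1 TPM in the sensitive libraries. Without sensitive replicate 1, which left replicate 2 a larger share of the mean, IFIT1 and IFI44L were called lower as well.

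In U118 the IFIT family, RNA-binding proteins encoded side by side on chromosome 10, did not move as a block. IFIT2 was at 1.75, 1.60 and 2.13 TPM in the sensitive and 5.44, 6.51 and 6.99 TPM in the resistant libraries. The rise was 3.46-fold in the means and 1.37 ± 0.22 on the log2 scale (SE, limma adjusted p = 0.000896). IFIT3 was at 7.70, 5.79 and 7.58 TPM and then at 12.5, 14.7 and 14.5 TPM, with a difference of 0.90 that missed the size threshold (limma adjusted p = 0.0104) and passed it with median-ratio scaling (1.37). IFIT1 lay on the other side, at 10, 11.3 and 12.5 TPM in sensitive and 9.40, 4.42 and 5.42 TPM in resistant libraries. Its difference of −0.78 passed the adjusted p (0.0479 by limma) and missed the size threshold, and without resistant replicate 1 it was called at −1.05. Leaving out any one of the other 5 libraries lost the adjusted p, with −0.58 without resistant replicate 2 (limma adjusted p = 0.167), as did median-ratio scaling (−0.32, limma adjusted p = 0.20). IFIT5 overlapped between the groups, at 6.67 to 9.03 TPM and 3.88 to 10.02 TPM.

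The OAS family split in the same way. OASL was at 2.02, 1.94 and 1.69 TPM in the sensitive and 17.2, 26.3 and 31.7 TPM in the resistant libraries. This was a 13.3-fold higher mean and a rise of 3.14 ± 0.27 on the log2(TPM + 1) scale (SE, limma adjusted p = 2.4e-05). OAS3 went the opposite way, from 40.2, 43.3 and 39.2 TPM to 22.9, 17.7 and 18.8 TPM. It fell by 1.02 ± 0.21 (SE, limma adjusted p = 0.00342), just past the size threshold, and was below it with median-ratio scaling (−0.52), without mitochondrially encoded genes (−0.83), and when sensitive replicate 2 (−0.98), resistant replicate 2 (−0.95) or resistant replicate 3 (−0.99) was left out. OAS3 was the only member called lower in both lines, and TRIM22 the only one called higher in both. OAS2 was at 2.60 to 4.11 TPM and 4.58 to 6.26 TPM without passing the adjusted p, and OAS1 overlapped at 6.99 to 8.36 TPM and 5.69 to 9.33 TPM.

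The 2 Mx proteins, dynamin-like GTPases that trap viral capsids, also went apart. MX2 was at 0.0241, 0 and 0.0392 TPM in U118 sensitive and at 3.56, 2.27 and 2.35 TPM in U118 resistant libraries, a difference of 1.85 ± 0.19 (SE) that followed from the filter, as said above. With 1 sensitive library listed at 0, no fold is given. MX1 was at 3.06, 3.44 and 2.56 TPM and then at 1.38, 0.821 and 0.715 TPM. It fell by 1.04 ± 0.21 (SE, limma adjusted p = 0.0035), and was below the size threshold with median-ratio scaling (−0.73), without mitochondrially encoded genes (−0.99), and when sensitive replicate 2 (−0.96), resistant replicate 2 (−0.99) or resistant replicate 3 (−0.94) was left out.

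Among the genes of ISG15 conjugation, HERC5 stood apart in U118. HERC5, the main E3 ligase for ISG15, was at 0.182, 0.0739 and 0.165 TPM in the sensitive and 7.84, 4.48 and 5.20 TPM in the resistant libraries. The difference was 2.56 ± 0.23 (SE), given without a p because HERC5 passed the filter through the resistant libraries alone. In U87 the same gene was at 5.53, 12.7 and 7.50 TPM and at 9.19, 7.97 and 10.3 TPM, so that of the 4 groups the U118 sensitive one held the low values. HERC6, its neighbour on chromosome 4, was at 6.06, 4.65 and 6.16 TPM and then at 3.24, 1.94 and 2.43 TPM in U118, a difference of −0.91 short of the size threshold. HERC6 was called with a pseudocount of 0.1 (−1.14, limma adjusted p = 0.0172) and without U118 sensitive replicate 2 (−1.02). Without U118 sensitive replicate 1 or 3 it did not pass the adjusted p. ISG15 at 35.6 to 68.5 TPM and 29.3 to 53.0 TPM, and USP18 at 8.18 to 10.3 TPM and 4.71 to 11.5 TPM, overlapped between the U118 groups.

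Of the membrane proteins, BST2 had the largest fall on the log2(TPM + 1) scale of all members tested, while CMPK2 fell further with a pseudocount of 0.1 (−6.76, against −4.95 for BST2). BST2 (tetherin), which holds budding virions at the cell surface, was at 22.1, 25.5 and 15.6 TPM in U118 sensitive and 0.593, 0.515 and 0.612 TPM in U118 resistant libraries. The mean was 36.8-fold lower, and the log2 difference was −3.79 ± 0.25 (SE), which followed from the filter since only the sensitive libraries reached 1 TPM. In U87 it stayed between 1.48 and 2.23 TPM in all 6 libraries, above the U118 resistant level. IFITM2 went from 1.89, 4.996 and 4.91 TPM to 8.22, 24.2 and 22.4 TPM in U118, a rise of 1.91 ± 0.44 (SE, limma adjusted p = 0.00661). IFITM1 was at 0.150 to 0.581 TPM and 0.107 to 0.445 TPM and was not tested in U118. IFITM1, IFITM2 and IFITM3 are near-identical neighbours on chromosome 11, and the way the authors assigned shared reads is not given in the sources used here, so the values of single IFITM genes are uncertain.

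CMPK2, a mitochondrial nucleotide kinase, and RSAD2 (viperin), which makes a chain-terminating nucleotide, lie head to head on chromosome 2, and their annotated spans overlap. CMPK2 was at 10.8, 11.02 and 10.5 TPM in U118 sensitive libraries and was listed at 0 in all 3 U118 resistant and all 6 U87 libraries. It entered the U118 test through the sensitive libraries alone, and neither a p nor a fold against values listed at 0 is given. RSAD2 did not share this pattern. It was at 0.704, 0.688 and 0.821 TPM in U118 sensitive and 0.428, 0.862 and 0.595 TPM in U118 resistant libraries, while 5 of the 6 U87 libraries listed it at 0 and the sixth at 0.0611 TPM.

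Falls in U118 reached several other roles. IFI44, a cytoplasmic protein of the small IFI group, was at 90.5, 73.8 and 109 TPM in sensitive and 31.6, 16.9 and 21.6 TPM in resistant libraries, a fall by 1.94 ± 0.27 (SE, limma adjusted p = 0.000447). GBP1, a guanylate-binding GTPase, was at 20.2, 18.3 and 21.7 TPM and then at 5.92, 6.12 and 5.23 TPM, a fall by 1.64 ± 0.22 (SE, limma adjusted p = 0.000335). XAF1, a pro-apoptotic antagonist of XIAP, was at 3.56, 3.23 and 5.04 TPM and then at 0.220, 0 and 0.0248 TPM. It was listed at 0 in all 6 U87 libraries, as was CMPK2. IFI44L, the neighbour of IFI44, did not follow it, at 4.87 to 7.76 TPM in sensitive and 2.61 to 8.70 TPM in resistant U118 libraries.

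SAMD9 and SAMD9L, neighbouring antiviral and growth-restraining genes on chromosome 7, were both called lower in U118. SAMD9 was at 11.7, 7.42 and 17.3 TPM and then at 3.20, 3.51 and 4.06 TPM, a fall by 1.45 ± 0.31 (SE, limma adjusted p = 0.00423). SAMD9L was at 6.71, 4.39 and 13.2 TPM and then at 2.64, 2.42 and 3.45 TPM. The sensitive libraries of both genes were spread widely, with replicate 3 highest, and without that library SAMD9L was not called (−0.76). It was not called with median-ratio scaling (−0.72), without mitochondrially encoded genes or with no filter either. PARP9, a macrodomain protein that pairs with DTX3L, was at 19.8, 22.0 and 26.3 TPM and then at 15.1, 5.78 and 9.95 TPM. Its fall by 1.15 ± 0.32 (SE, limma adjusted p = 0.0162) was not called without sensitive replicate 3 (−1.04), without resistant replicate 2 (−0.83) or with median-ratio scaling (−0.67). Neither was it called without mitochondrially encoded genes or with no filter. DTX3L was at 18.2 to 23.0 TPM and 10.95 to 14.0 TPM, with a difference of −0.71 that missed the size threshold and came to −0.22 with median-ratio scaling (limma adjusted p = 0.345). The spans of PARP9 and DTX3L overlap at their starts.

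TRIM22 in U118 rested on 1 library more than any other called member. It was at 14.1, 10.05 and 12.2 TPM in sensitive and 101, 21.9 and 26.0 TPM in resistant libraries, a difference of 1.61 ± 0.50 (SE, limma adjusted p = 0.0245). With no filter TRIM22 was not called. Without resistant replicate 1 the difference was 0.94 and was not called, and it was not called without sensitive replicate 2 (1.498) or 3 (1.63) either. All 3 resistant libraries were above all 3 sensitive ones. The same omission left BST2, CMPK2, XAF1, IFI44, GBP1, SAMD9, SAMD9L, PARP9, MX1 and OAS3 called lower, added IFIT1, IFI27 and HERC6 to them, and left OASL, IFIT2 and IFITM2 called higher. It took MX2 and HERC5 out of the test, since only 2 libraries then reached 1 TPM.

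The transcription factors among the members were not called in U118. STAT2 was at 52.5, 50.8 and 40.6 TPM in sensitive and 49.7, 21.7 and 27.2 TPM in resistant libraries. IRF1, an activator of interferon and antiviral genes, was at 17.4 to 22.6 TPM and 23.3 to 31.5 TPM, and IRF7, the main regulator of interferon alpha genes, at 5.63 to 9.58 TPM and 4.53 to 5.02 TPM. IRF9, the DNA-binding subunit of ISGF3, was at 15.9 to 18.1 TPM and 9.96 to 15.2 TPM. The groups of IRF1, IRF7 and IRF9 did not overlap, and none of the 4 factors passed the adjusted p. IFIH1 (MDA5), the sensor of long double-stranded RNA, was at 5.03, 5.04 and 5.59 TPM and then at 2.48, 2.63 and 2.995 TPM, a difference of −0.75 with an adjusted p of 0.0154 by limma that missed the size threshold. With median-ratio scaling it was −0.34 (limma adjusted p = 0.207). IFI27, a mitochondrial protein, was at 1.45 to 2.45 TPM and 0.268 to 1.18 TPM, with a difference of −0.88 that likewise missed the size threshold. With a pseudocount of 0.1 IFI27 was called at −1.70 (limma adjusted p = 0.0216), and leaving out some single libraries lost its adjusted p. IFI6 was at 21.3 to 28.4 TPM and 20.1 to 36.9 TPM and ISG20, an exonuclease, at 1.24 to 2.27 TPM and 0.561 to 3.54 TPM. EPSTI1 did not exceed 0.198 TPM in any of the 12 libraries.

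**Figure D3:**
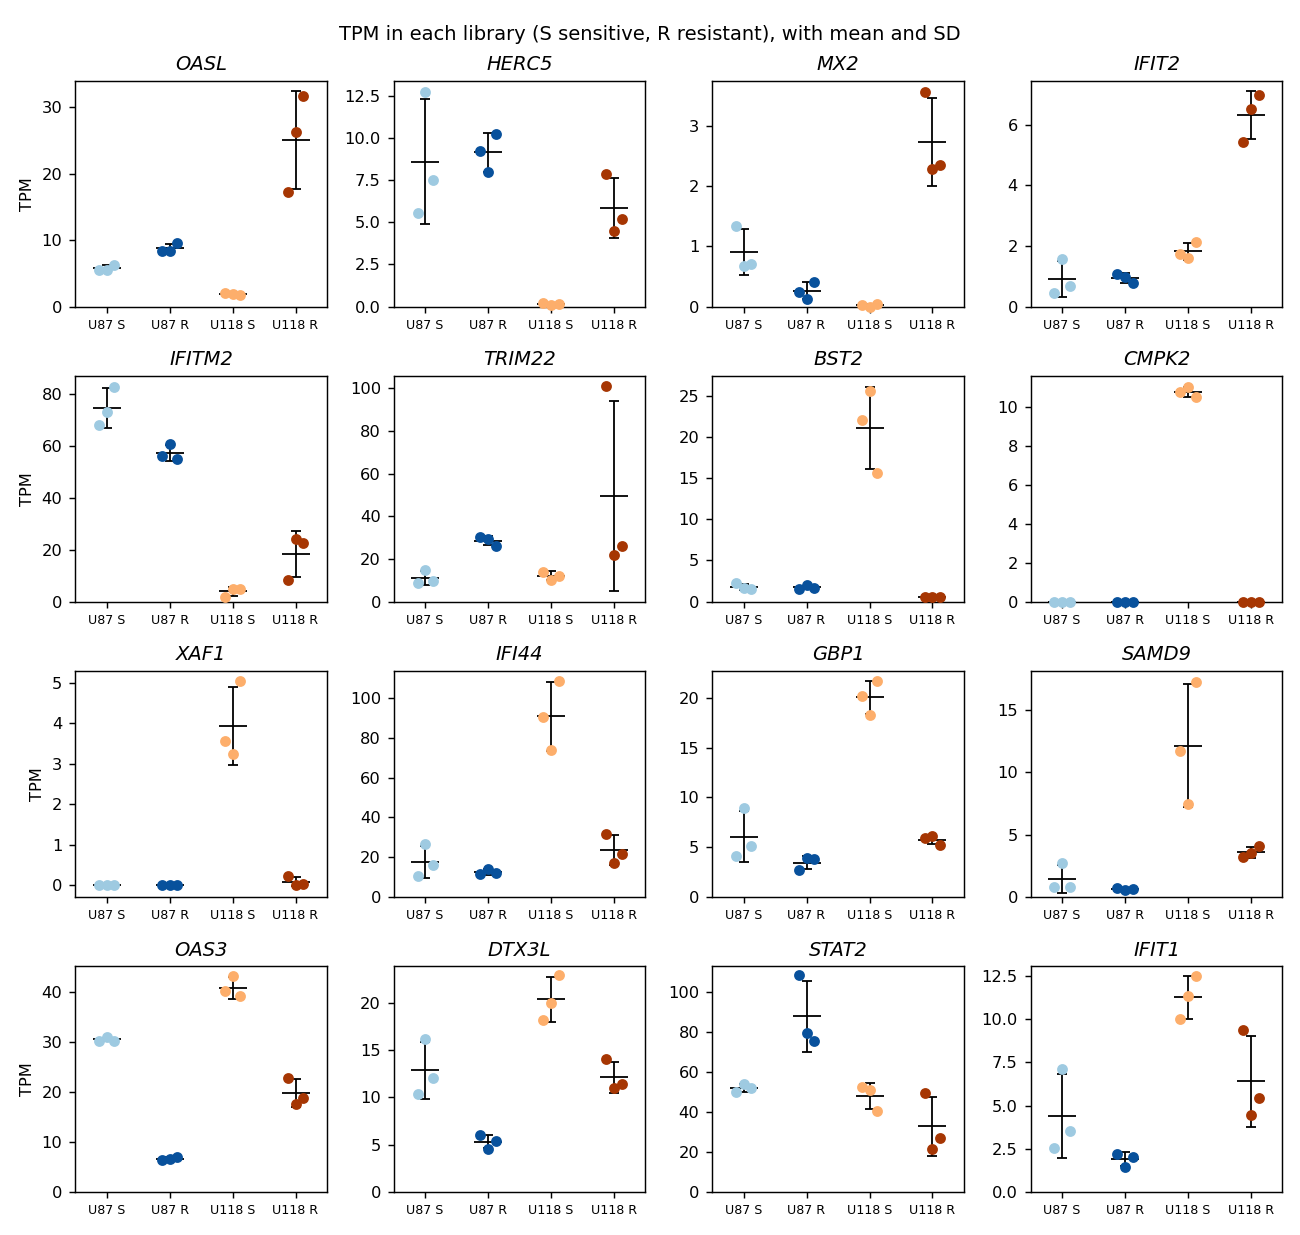
TPM of 16 members in each library (points) with the mean and SD of each group (bars, n = 3), on linear axes; S is sensitive and R is resistant. OASL, MX2 and IFIT2 are highest in U118 resistant cells, while CMPK2, XAF1 and BST2 are high in U118 sensitive cells alone.

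The change itself was compared between the lines in a fit over all 12 libraries, as the U118 difference minus the U87 difference. Of 36 members tested, 7 were called with a higher change in U118 (19.4%, against 12% of 16382 genes) and 6 with a lower one (16.7%, against 18.5% of all genes). The 7 were OASL (2.60 ± 0.30, SE), MX2 (2.44 ± 0.24), HERC5 (2.41 ± 0.38), IFITM2 (2.28 ± 0.51), IFIT2 (1.30 ± 0.30), IFIT3 (1.18 ± 0.30) and OAS3 (1.03 ± 0.20). OAS3 thus fell in both lines and fell further in U87. The 6 were BST2 (−3.75 ± 0.28, SE), CMPK2 (−3.56 ± 0.15), XAF1 (−2.18 ± 0.20), IFI44 (−1.56 ± 0.42), STAT2 (−1.34 ± 0.36) and GBP1 (−1.02 ± 0.34). STAT2 was called in neither line alone, as it missed the size threshold in U87 and did not pass the adjusted p in U118. CMPK2 and XAF1 were listed at 0 in every U87 library, so their difference between the lines was the U118 difference alone. Both entered this fit only through the U118 sensitive libraries, and MX2 only because of the U118 resistant ones, so that a difference followed from the filter for these 3. Limma adjusted p-values of the other 10 members ran from 4.63e-07 (BST2) to 0.0319 (GBP1). Of the 13, IFIT3 was not called without U87 sensitive replicate 2 (0.97), OAS3 was not called without U118 resistant replicate 1 (0.93), and GBP1 was not called in 11 of 18 alternatives. With median-ratio scaling the split was 8 and 5.

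Because the U118 resistant libraries ranked genes more like U87, the member levels there were also set beside the U87 levels, without a test. On the mean log2(TPM + 1) scale, 19 of 36 members (52.8%) were nearer to U87 resistant than to U118 sensitive cells, against 65.7% of all genes. Of the 16 members called in U118, 13 were nearer to U87 resistant (81.2%), against 93.1% of all genes called in U118. A call requires a distance from the U118 sensitive level, which favours the other group as the nearer one, and the 13 include the 5 members that entered the U118 test through 1 group alone, so nothing is read from this count. HERC5 rose to 4.48 to 7.84 TPM, beside 7.97 to 10.3 TPM in U87 resistant cells, and CMPK2 and XAF1 came to 0 or near it, as in U87. For these 3 members, and for GBP1 and IFI44, the direction in U118 was from the U118 sensitive level towards the U87 level. IFIT2, OAS3 and SAMD9 were the 3 called members that stayed nearer to U118 sensitive cells. In U87, IFIT2 spanned 0.445 to 1.57 TPM over both groups and SAMD9 0.551 to 2.73 TPM.

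Some members had U118 resistant levels outside those of every other group, including MX2, OASL and BST2 of the 13 above. All 3 U118 resistant libraries were above the 9 other libraries for IFIT2, IFIT3, MX2, OAS2, OASL and IRF1, 6 of 36 members, against 4.9% of all genes. MX2 is among the 36 only because of the U118 resistant libraries, so its place in this count followed from the filter. They were below all 9 for BST2, 1 of 36 members, against 4.79% of all genes. OASL, for example, did not exceed 9.53 TPM outside these libraries and was at 17.2 TPM or more within them. IFIT3 did not exceed 7.70 TPM elsewhere and was at 12.5 TPM or more within them.

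**Figure D4:**
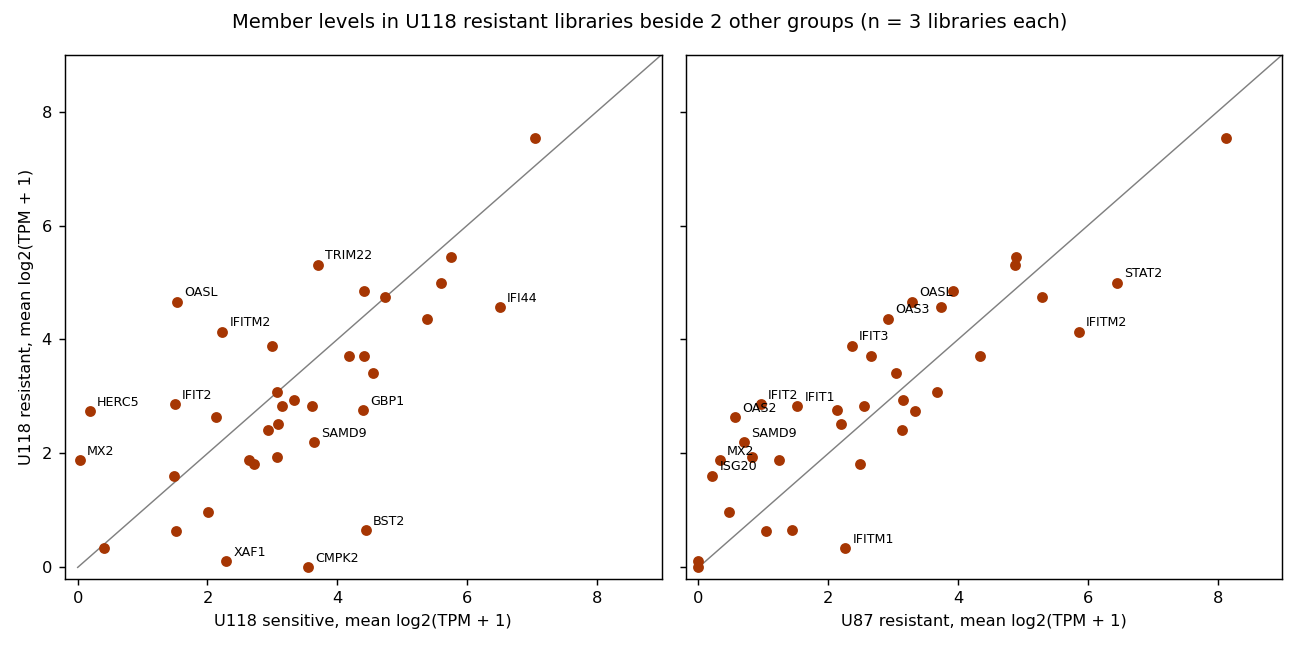
Mean log2(TPM + 1) of 36 members in U118 resistant libraries (y axis) against U118 sensitive (left) and U87 resistant (right) libraries, with the line of equal levels. CMPK2, XAF1 and HERC5 lie far from the line on the left and close to it on the right, and OASL, MX2 and IFIT2 lie above it on both sides.

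The genes upstream of the members did not include a detected type I interferon. IFNA1, IFNA2, IFNB1, IFNE, IFNK and IFNW1 were listed at 0 in all 12 libraries. IFNL1, a type III interferon that signals through the receptor pair IFNLR1 and IL10RB to ISGF3, was listed at 0 in 9 libraries and was at 0.260, 1.40 and 1.09 TPM in the U118 resistant ones. It did not pass the filter and was not tested. IFNLR1 was listed at 0 in U118 sensitive libraries and was at 1.33, 0.741 and 1.22 TPM in U118 resistant ones, near the 0.654 to 1.06 TPM of U87 resistant ones.

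Of the 26 upstream genes, 16 were tested in U87, with none called higher and 1 lower (6.25%, against 3.03% of all genes higher and 7.79% lower). That one was IFNGR2, a subunit of the interferon gamma receptor, at 24.3, 29.7 and 20.2 TPM in sensitive and 8.63, 7.69 and 7.74 TPM in resistant libraries. In U118, 15 were tested, with 1 called higher and 5 lower (6.67% and 33.3%, against 8.64% and 26.6% of all genes). Among the 5 were IFNGR1 (−1.30), SOCS3 (−1.26), TYK2 (−1.12) and PIAS1 (−1.11), of which SOCS3 and PIAS1 are inhibitors of the pathway. The gene called higher was IRF5, a factor of inflammatory signalling, at 0, 0.0807 and 0 TPM and then at 2.47, 1.64 and 1.54 TPM. In U87, IRF5 was at 3.25 to 4.04 TPM in sensitive and 1.24 to 1.55 TPM in resistant cells. It passed the filter in U118 through the resistant libraries alone, so that a difference followed from the filter. The receptor subunits IFNAR1 and IFNAR2 were called in neither line, at 10.8 to 21.5 TPM and 5.35 to 14.5 TPM over all 12 libraries.

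A list of 53 other interferon-responsive genes, which shares no gene with the members, gave 2 called higher and 3 lower of 44 tested in U87 (4.55% and 6.82%, against 3.03% and 7.79% of all genes). In U118 it gave 3 higher and 7 lower of 47 tested (6.38% and 14.9%, against 8.64% and 26.6% of all genes). In U87 the 2 higher genes were LY6E (1.22) and RIGI, the RIG-I sensor (1.18), and the 3 lower ones were UBA7, the E1 enzyme for ISG15 (−2.52), GBP2 (−1.31) and SHISA5 (−1.21). In U118 the 3 higher genes were LGALS3BP (3.29), IFI27L2 (1.99) and LY6E (1.20), and the 3 lowest were GBP3 (−3.49), HELZ2 (−1.41) and PNPT1 (−1.19). UBA7 was at 16.4, 13.7 and 14.1 TPM in U87 sensitive and 1.35, 1.90 and 2.01 TPM in U87 resistant libraries, so that the enzyme that starts ISG15 conjugation fell in U87 while ISG15 itself did not pass the test. GBP3 lies beside GBP1 on chromosome 1 and was at 22.6, 15.5 and 22.0 TPM in U118 sensitive and 1.43, 0.657 and 0.580 TPM in U118 resistant libraries.

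Of 7 genes that interferon gamma induces more strongly, 3 were tested in each line, with none called in U87 and 2 called higher in U118 (66.7%, against 8.64% of all genes). The third gene tested in U118, CIITA, the activator of MHC class II genes, differed by 0.94 (limma adjusted p = 0.0103) and missed the size threshold. GBP5 was tested in neither line and lay lower in resistant cells of both. It went from 0.290 to 0.604 TPM to 0 to 0.0345 TPM in U118. In U87 it went from 0.739 to 1.51 TPM to 0.0221 to 0.119 TPM. GBP4, IDO1 and CXCL9 were at 0.539 TPM or less in every library. HLA-DRA, an MHC class II chain, was at 3.12, 3.55 and 3.10 TPM in U118 sensitive and 101, 23.9 and 32.9 TPM in U118 resistant libraries. CD74, its invariant chain partner, was at 2.01, 2.07 and 2.18 TPM and then at 159, 143 and 123 TPM, beside 19.7 to 29.5 TPM in U87. The leukocyte marker CSF1R moved with them, from 1.3 to 1.4 TPM to 9.5 to 15 TPM, and ITGAM reached 0.66 to 1.4 TPM, while TYROBP and AIF1 were listed at 0 in all 12 libraries and PTPRC did not exceed 0.069 TPM. The summed level of the 8 leukocyte markers was 1.91 to 2.19 TPM in U118 sensitive, 10.8 to 17.3 TPM in U118 resistant and 5.86 to 7.42 TPM in U87 libraries, and their part in the result was not tested.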

How the data were processed

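Poly(A) mRNA libraries of 4 groups of 3 were analysed, grouped by the sample labels. The authors deposited TPM values per gene, 1 table for each cell line. The submitters' processing notes name FastQC 0.11.2, Trimmomatic 0.36, HISAT2 2.0, bedtools 2.26.0 and GRCh38. The tool that made the TPM, its annotation and its use of strand are not given in the sources used here. Depth is unknown, since TPM keeps no counts.

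Fits were made on log2(TPM + 1) in R 4.3.3 by lmFit and trended eBayes of limma 3.58.1, for the genes that reached 1 TPM in 3 or more libraries of the fit. Adjusted p-values are two-sided and Benjamini-Hochberg adjusted over all genes tested. The fits were tested on simulated data before use. Gene positions follow GENCODE release 29 and promoters follow RefSeq. The 38 members, the other lists (26 upstream, 53 other interferon-responsive and 7 interferon gamma genes) and the marker lists were chosen with earlier results of these data known. All members were reported, and some genes of the other lists are not reported here. Of the other interferon-responsive genes, the 3 largest called rises and falls per line were named. Alternatives were median-ratio scaling, a pseudocount of 0.1, no filter, a filter at a mean of 10 TPM, TPM without mitochondrially encoded genes, a replicate block, eBayes without trend, no size threshold, and leaving out each library.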

Additional observations from a re-analysis of the deposited data

Results flagged for a closer look

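The change between resistant and sensitive cells differed between U87 and U118 for 13 members in a limma interaction term on log2(TPM + 1), and each value is the U118 difference minus the U87 difference. The change was higher in U118 for OASL (2.60), MX2 (2.44), HERC5 (2.41), IFITM2 (2.28), IFIT2 (1.30), IFIT3 (1.18) and OAS3 (1.03). These 7 were 19.4% of the 36 members tested, against 12% of all genes. It was lower in U118 for BST2 (−3.75), CMPK2 (−3.56), XAF1 (−2.18), IFI44 (−1.56), STAT2 (−1.34) and GBP1 (−1.02), which were 16.7% of the members tested, against 18.5% of all genes. For MX2, CMPK2 and XAF1 a difference followed from the filter on low values, and GBP1 was not called in 11 of 18 alternatives. The U118 resistant libraries ranked genes more like U87 than like U118 sensitive cells, and the part of this in the 13 differences was not tested. Groups of 3 libraries are too small for a test of single outlying libraries.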

How the results depend on the processing

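In U87, the count of members called higher went from 1 to 2 with median-ratio scaling and to 5 without the size threshold. The count called lower went from 2 to 1 with a mean of at least 10 TPM and to 1 with median-ratio scaling, and leaving out 1 library gave 1 to 4. In U118, a mean of at least 10 TPM, under which fewer members are tested, took the counts from 6 to 3 higher and from 10 to 5 lower. A pseudocount of 0.1 gave 12 lower. Median-ratio scaling gave 6 lower, and so did TPM without mitochondrially encoded genes, and leaving out 1 library gave 3 to 6 higher and 5 to 13 lower. The median of the U118 members went from −0.52 to −0.10 with median-ratio scaling. The count of members whose change differed between the lines went from 13 to 5 with a mean of at least 10 TPM. Of the called members, 2 of 3 in U87 (OAS3 and TRIM22), 11 of 16 in U118 and 10 of 13 for the difference between the lines were called in each alternative in which they could be tested, and none changed sign. The exceptions were DTX3L in U87, MX1, OAS3, SAMD9L, PARP9 and TRIM22 in U118, and IFIT3, OAS3 and GBP1 for the difference. The cause was not tested. The 11 in U118 include MX2, HERC5, BST2, CMPK2 and XAF1, and the 10 for the difference include MX2, CMPK2 and XAF1. For these a difference followed from the filter, so nothing is read from their staying called.

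In U87, same-numbered deviations correlated at −0.07 to 0.01, and differently numbered ones at −0.06 to 0.08, so the replicate numbers showed no pairing there. In U118, same-numbered deviations correlated at 0.05 to 0.14, all above the −0.11 to 0.04 of differently numbered ones. These correlations were weak, and whether the numbers pair the U118 libraries was not tested. With the replicate block the counts were 1 higher and 2 lower in U87, 6 and 10 in U118, and 13 for the difference. TPM gives no depth, so no detection limit can be set for members listed at 0.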
